A study of Sus scrofa with 12 samples.

Results

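Ischemic jejunal mucosa of neonatal pigs was compared with ischemic jejunal mucosa of juvenile pigs in 6 of the 12 RNA-sequencing samples of the study, 3 of each age. Neonatal pigs were 2 wk old and juvenile pigs 6 wk old, all were Yorkshire crosses and all were under general anesthesia that the methods describe as xylazine and ketamine followed by isoflurane. Loops of distal jejunum had their local mesenteric vessels tied for 30 min, neighboring loops without ischemia gave the control mucosa (3 further libraries of each age), and the mucosa was scraped off and frozen. Of the 23909 genes in the count table, 14191 exceeded 1 CPM, a count scaled to the size of its library, in 2 or more of the 12 libraries and were tested. A gene was called different at an edgeR Benjamini-Hochberg adjusted p under 0.05. Log2 fold changes are neonatal relative to juvenile throughout, and CPM values are scaled by TMM factors. The labels give no sex and do not say whether an ischemic and a control loop with the same letter came from 1 pig, so p-values measure the spread between these samples only.

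The jejunal mucosa is lined by absorptive enterocytes, goblet, enteroendocrine and tuft cells that renew from stem cells in the crypts, over a lamina propria with lymphocytes, macrophages, vessels, fibroblasts and glia. In suckling mammals enterocytes are specialized for milk, with lactase in the brush border and a large endocytic and lysosomal apparatus, and around weaning they gain maltase and sucrase. The lymphocyte population of the young gut also changes after birth, as T cells settle in the epithelium and B cells gather in Peyer's patches. A scraping mixes all of these cells, and in such bulk samples fewer cells of a type and less RNA per cell cannot be told apart.

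The ischemic libraries differed in depth. Counts on genes totaled 5177227, 1652066 and 12116480 in neonatal replicates A, C and D and 6596275, 13679407 and 5849108 in juvenile replicates A, B and C. A floor of 3 counts, below which a gene was taken as not detectable, therefore lay between 0.219 CPM in juvenile replicate B and 1.82 CPM in neonatal replicate C. Several libraries stood apart from the rest of their group. Juvenile replicate A had 54019 CPM on ENSSSCG00000018063, an identifier without a symbol in the tables used here, against 12426 and 12284 CPM in the other juvenile libraries. Neonatal replicate D carried Y-linked reads, with 309 CPM of DDX3Y and 75.4 CPM of ZFY, as did its control counterpart with 324 and 52.6 CPM. Neonatal ischemic replicate C had 11.5 CPM of DDX3Y while neonatal control replicate C had 0.801 CPM, and no juvenile ischemic library exceeded 0.0747 CPM. High Y-linked reads thus occurred among neonates only, and the part of sex in the age differences was not tested. Whether neonatal ischemic replicate C holds RNA of another pig, or comes from a different pig than its control counterpart, was not tested. The titles call neonatal replicate C by the letter B, and the letter of the count columns and descriptions is used here. With all 6 libraries 4718 genes were called, against 4949 without neonatal replicate D, 4466 without neonatal replicate C and 3202 without neonatal replicate A. Without juvenile replicates A, B and C in turn 3350, 3483 and 3270 were called.

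Markers of the labelled tissue were present in all 6 libraries. All 6 epithelial markers found in the table (EPCAM, CDH1, VIL1, KRT8, KRT18 and KRT20) exceeded the floor in each library, and their summed level was 1450.5, 2092 and 2568 CPM in neonatal replicates A, C and D and 4907, 10223 and 6811 CPM in juvenile replicates A, B and C. The groups did not overlap in this sum. The muscle layer markers (5 genes, led by MYH11) summed to 715, 1040.0 and 245 CPM in neonates and 755, 517 and 569 CPM in juveniles, with overlap. Markers of lymphoid follicles, led by PAX5, summed to 2213, 1771 and 2371 CPM in neonates and 390.4, 295 and 615 CPM in juveniles. Stomach and pancreas marker sets stayed under 1 CPM in sum, and the liver set reached at most 3.44 CPM. Red blood cell markers, led by the hemoglobin gene HBB, did not overlap either, with sums of 97.8, 117 and 139 CPM against 19.8, 19.8 and 12.7 CPM. The lower epithelial and higher follicle and red blood cell markers of neonates accompanied all results below, and their part in those results was not tested.

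In ischemic mucosa 4718 genes were called, 33.2% of those tested, with 2356 higher in neonates (16.6%) and 2362 lower (16.6%). These shares are the background for all counts of list members below. Among the called genes, 3362 differed by at least 1 on the log2 scale, and 398 were higher and 445 lower by at least 2. No neonatal library overlapped a juvenile one for 48.2% of the genes tested. The median log2 fold change over all genes tested was -0.01. Among 148 genes of the interferon response and antigen presentation, 124 were tested, of which 2 were called higher and 81 lower. Of those genes, IRF4, CCL5, TNFSF10, IL15, IL15RA and IL18BP also belong to other lists and are counted there too.

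MELTF, on chromosome 13 of Sscrofa11.1 (133094869 to 133122092), encodes melanotransferrin, an iron-binding protein of the transferrin family that is tethered to the cell surface. It had 154, 182 and 201 CPM in neonatal replicates A, C and D and no more than 1 count in each juvenile library. The gene was at least 372-fold higher in neonates, taking 3 counts in the shallowest juvenile library as the floor, and held the smallest p of all genes (edgeR adjusted p = 9.8e-08).

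The genes with the largest differences among those expressed at 10 CPM or more in one age had non-overlapping groups by the way they were chosen, and MELTF led the 10 that were higher in neonates. CLIC6, of the chloride intracellular channel family, was at 16.9, 20.7 and 8.86 CPM in neonates and 0.573, 0 and 0 CPM in juveniles, with a log2 fold change of 6.46. Only juvenile replicate A had more than 3 counts of CLIC6, and against the floor of 3 counts in the remaining juvenile libraries, which had 0 counts, the neonatal mean was higher by at least 32.2-fold. TNFSF11, the ligand RANKL that drives the formation of antigen-sampling M cells, had 26.8, 47.7 and 23.04 CPM in neonates against 2.86, 0.897 and 2.24 CPM (log2 fold change 4.07, standard error 0.44, edgeR adjusted p = 0.000191). PHGDH, the entry enzyme of serine synthesis, stood at 18.5, 10.9 and 18.5 CPM against 1.29, 0.747 and 1.44 CPM (log2 fold change 3.91, standard error 0.40, edgeR adjusted p = 0.000156). In all 3 the lowest neonatal library was more than 5 times the highest juvenile one. CLGN, a chaperone of the endoplasmic reticulum, was measured at 82.8, 43.6 and 43.4 CPM in neonates and 3.44, 4.34 and 4.01 CPM in juveniles. CEACAM20, a microvillus glycoprotein of the intestinal epithelium, gave 195, 277 and 363 CPM in neonates and 27.5, 18.01 and 36.2 CPM in juveniles (log2 fold change 3.39, standard error 0.33, edgeR adjusted p = 0.000105). BASP1, a membrane protein best known from growing axons, was at 259, 226 and 91.4 CPM and 15.2, 15.6 and 20.8 CPM (log2 fold change 3.49, standard error 0.36, edgeR adjusted p = 0.000179). Neonatal replicate D was the lowest neonatal library for BASP1, TCEAL2 and the histone gene HIST2H2AB. For HIST2H2AB it held 52.5 CPM where replicates A and C held 394 and 239 CPM, and juveniles had 14.6, 15.9 and 26.1 CPM (log2 fold change 3.61, standard error 0.70, edgeR adjusted p = 0.00788). The remaining genes of this group were TCEAL2, with a log2 fold change of 4.36, and AP3B2, a subunit of the neuronal form of an adaptor complex, with 3.49.

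The 10 genes lower in neonates by the same rule were CYP24A1, GZMA, GZMK, SLC6A4, MGAM, KLRK1, SLC10A2, GSTA2, GZMB and SLC24A4, and thus held 4 genes of cytotoxic lymphocytes. GZMA, a granzyme that cytotoxic lymphocytes release into target cells, was at 3.85, 6.32 and 6.499 CPM in neonates and 224, 112 and 195 CPM in juveniles (log2 fold change -4.96, standard error 0.35, edgeR adjusted p = 1.9e-05). GZMB was at 0.578, 2.297 and 3.47 CPM against 51.3, 37.00 and 44.2 CPM (log2 fold change -4.20, standard error 0.45, edgeR adjusted p = 0.000179), and GZMK at 0.963, 0 and 0.148 CPM against 14.6, 7.62 and 13.9 CPM. KLRK1, the activating receptor NKG2D, reached 0.578, 0 and 0.812 CPM in neonates and 18.5, 12.9 and 11.9 CPM in juveniles. For GZMA and GZMB the lowest juvenile library was more than 7 times the highest neonatal one. GZMK and KLRK1 had 0 counts in the shallow neonatal replicate C, and every juvenile library was above every neonatal one. SLC6A4, the serotonin transporter by which enterocytes clear serotonin, had 1.54, 0.574 and 1.699 CPM in neonates and 41.1, 35.9 and 49.4 CPM in juveniles (log2 fold change -4.76, standard error 0.34, edgeR adjusted p = 1.9e-05). SLC24A4, an exchanger of sodium for calcium and potassium, had 3.27, 2.87 and 2.58 CPM and 52.4, 44.4 and 40.5 CPM (log2 fold change -3.95, standard error 0.28, edgeR adjusted p = 1.9e-05). CYP24A1, which breaks down the active form of vitamin D, was at the floor in neonates, with at most 1 count, and at 21.3, 2.24 and 22.1 CPM in juveniles. Juvenile replicate B was far under the other juvenile libraries for CYP24A1. The bound for this gene was at least 8.84-fold lower in neonates, 26.4-fold without the shallow neonatal replicate C, and its call (edgeR adjusted p = 0.00391) was lost without neonatal replicate A (edgeR adjusted p = 0.0570). Counts of granzymes, histones, glutathione transferases and other close relatives are less certain, since reads with several alignments were left out of gene counts.

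**Figure D1:**
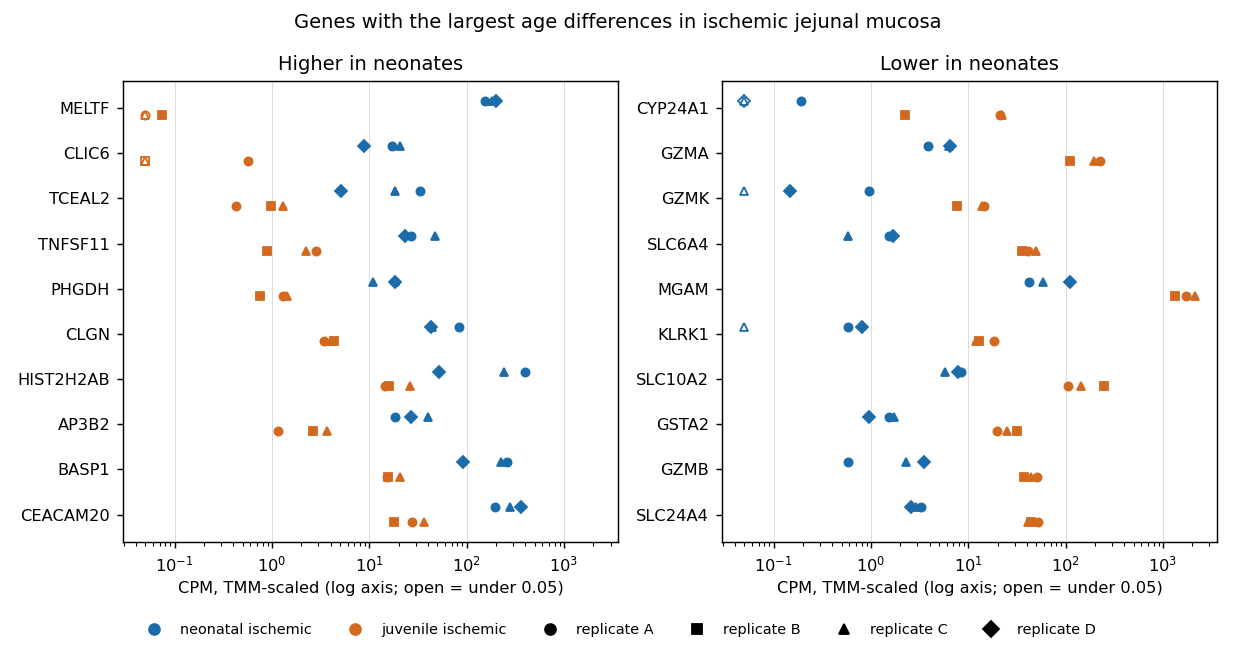
CPM on a log axis for the 10 genes furthest apart between the ages on either side, one point for each of the 6 ischemic libraries (blue neonatal, orange juvenile, shape by replicate letter, open symbols under 0.05 CPM). No neonatal point overlaps a juvenile point for any of the 20 genes, MELTF lies at 154, 182 and 201 CPM in neonates, and HIST2H2AB and TCEAL2 have the widest spread among neonatal libraries of the 10 genes higher in neonates.

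Across 35 gene lists other than the interferon list, the shares called differed widely. The lists were chosen with earlier results of these data known, so their shares are descriptions beside the background and not independent evidence. With 1 library left out, counts of 3 or fewer called members moved by up to 3, and larger shifts of more than 1.5 times are given beside each list. Over 50% of the members tested were called higher for 2 lists, cell cycle genes and B cell genes, and over 50% were called lower for digestive enzymes, transporters, bile acid uptake, fat absorption, drug metabolism, mucus, crypt, junction, T cell and cytotoxic lists.

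**Figure D2:**
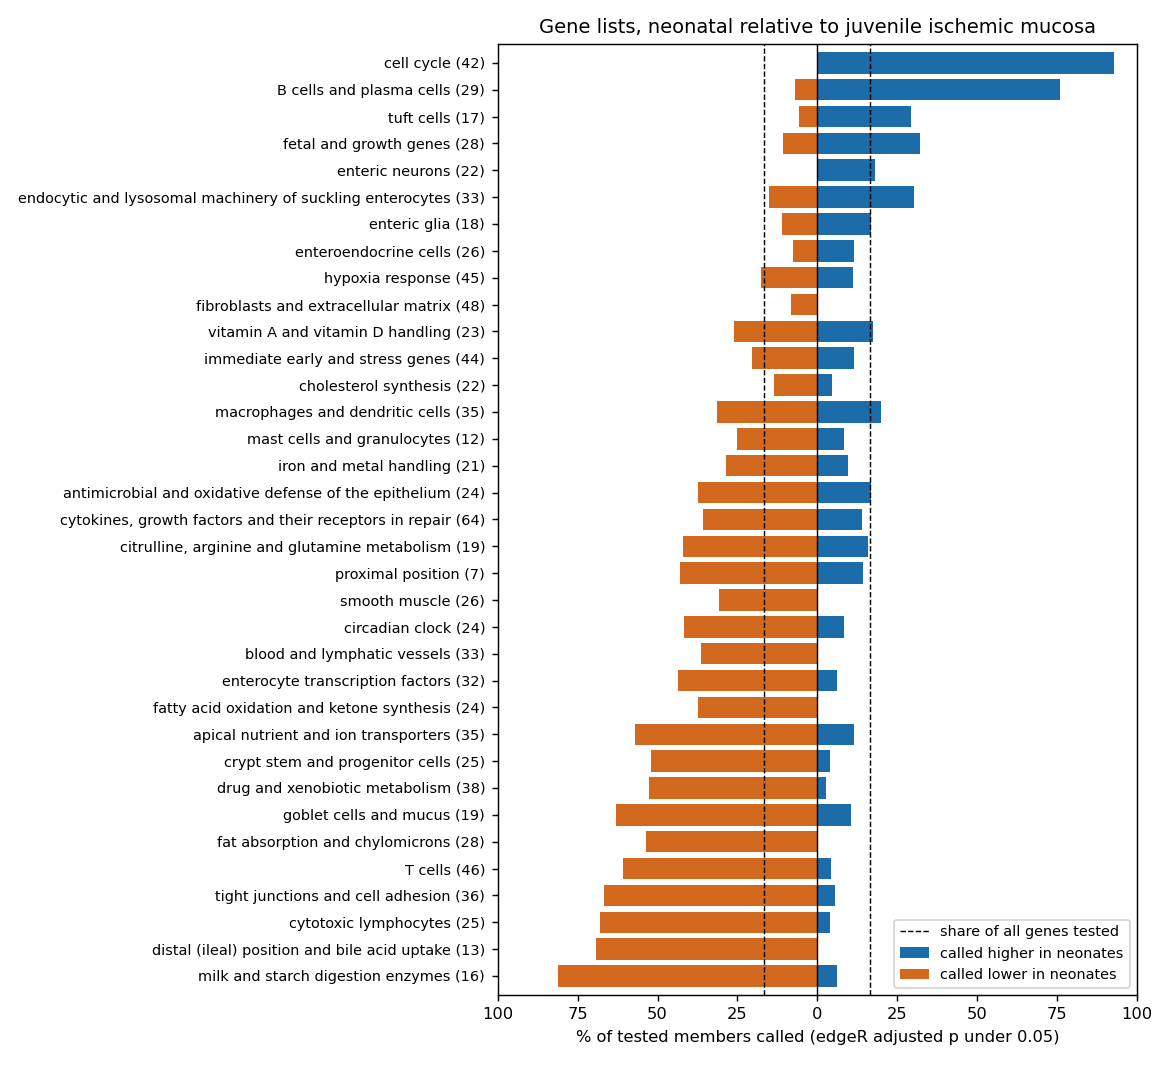
Share of tested members of each of 35 gene lists called higher (blue, to the right) or lower (orange, to the left) in neonatal ischemic mucosa, in percent, with the number of members tested in parentheses and dashed lines at the 16.6% of all genes called in each direction. Cell cycle genes extend to 92.9% on the right and digestive enzymes to 81.2% on the left.

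Digestive enzymes of the brush border separated the ages in opposite directions for milk sugar and for starch and sucrose. LCT, the lactase that splits milk sugar, was higher in neonates, at 38.9, 40.2 and 59.7 CPM against 14.9, 12.7 and 18.1 CPM (log2 fold change 1.65, standard error 0.27, edgeR adjusted p = 0.00146). MGAM, maltase-glucoamylase, was lower, at 41.98, 58.6 and 109.9 CPM in neonates and 1736, 1322 and 2125 CPM in juveniles (log2 fold change -4.58, standard error 0.42, edgeR adjusted p = 7.5e-05). SI, sucrase-isomaltase, was at 280.4, 426 and 820.4 CPM in neonates and 4157, 6416 and 4786 CPM in juveniles (log2 fold change -3.29, standard error 0.43, edgeR adjusted p = 0.000463). Within neonates replicate D held the highest and replicate A the lowest level of LCT, MGAM and SI alike. Of 16 enzymes tested, 13 were called lower and LCT alone was called higher, and the median was -1.81. ANPEP, aminopeptidase N, was at -1.88 and lost its call without neonatal replicate C (edgeR adjusted p = 0.0533). TREH, the trehalase gene, had too few counts to be tested.

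Of 35 apical transporters for nutrients, ions and water, 20 were called lower and 4 higher (median -1.19), and without juvenile replicate A 2 were called higher. SLC5A1, the sodium-glucose transporter SGLT1, was at 81.8, 112 and 292 CPM in neonates and 1345, 1351 and 1558 CPM in juveniles (log2 fold change -3.08, standard error 0.45, edgeR adjusted p = 0.000955). AQP1, a water channel of vessels and some epithelia, was at 8.28, 13.2 and 8.79 CPM and 75.2, 90.6 and 100.5 CPM (log2 fold change -3.17, standard error 0.26, edgeR adjusted p = 3.6e-05). SLC15A1, the peptide transporter PEPT1, had 14.3, 3.45 and 32.2 CPM in neonates and 336, 88.7 and 359.8 CPM in juveniles, with the lowest juvenile value in replicate B, and its call was lost without juvenile replicate C or neonatal replicate A (edgeR adjusted p = 0.0550 and 0.0629). In the opposite direction, SLC7A8, a transporter of neutral amino acids, was at 36.4, 66.6 and 66.8 CPM in neonates and 17.3, 27.7 and 17.3 CPM in juveniles (log2 fold change 1.46, standard error 0.30, edgeR adjusted p = 0.00387). AQP10, an aquaglyceroporin of the small intestine, held at most 1 count in a juvenile library and 5.39, 2.297 and 2.14 CPM in neonates, at least 6.82-fold higher. SLC46A1, the proton-coupled folate transporter, had 4.43, 9.76 and 18.9 CPM in neonates and 4.15, 4.78 and 2.404 CPM in juveniles, and its log2 fold change of 1.61 was 0.76 without neonatal replicate D, and its call was lost without that library or any 1 juvenile library (edgeR adjusted p between 0.0541 and 0.236).

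Genes of bile acid uptake, which is concentrated in the ileum, were lower in neonates from the apical membrane to the basolateral one. SLC10A2, the apical bile acid transporter, was at 8.47, 5.74 and 7.83 CPM in neonates and 106, 245 and 144 CPM in juveniles (log2 fold change -4.40, standard error 0.34, edgeR adjusted p = 3.0e-05). FABP6, the ileal bile acid-binding protein, was at 109, 98.2 and 74.6 CPM and 396, 1486 and 600.5 CPM (log2 fold change -3.11, standard error 0.44, edgeR adjusted p = 0.000898). SLC51B, a subunit of the basolateral exporter, had 30.04, 17.8 and 18.8 CPM and 94.6, 192 and 93.9 CPM (log2 fold change -2.47, standard error 0.33, edgeR adjusted p = 0.000484). Juvenile replicate B was the highest library for all 3 genes. Of the 13 genes of this list 9 were called lower and 0 higher (median -1.55), and NR1H4, the bile acid receptor FXR, had a log2 fold change of -1.74. Both marker genes of the ileum lay lower in neonates than in juveniles, although all loops were labelled jejunum, and the exact position of each loop is not given. Of 7 genes of the proximal bowel 3 were called lower and 1 higher, with a median of -0.80 that became 0.76 without juvenile replicate B.

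Of 28 genes of fat absorption 15 were called lower and 0 higher, with a median of -0.97. ABCG5, which with ABCG8 pumps plant sterols and cholesterol back to the lumen, stood at 16.2, 15.5 and 29.2 CPM in neonates and 145, 143 and 129 CPM in juveniles (log2 fold change -2.69, standard error 0.28, edgeR adjusted p = 0.000167). ABCG8 was at 16.9, 13.2 and 26.00 CPM and 75.6, 100.8 and 93.4 CPM, a log2 fold change of -2.17. Every juvenile library exceeded every neonatal one for both genes. NPC1L1, the cholesterol importer, was at 47.95, 51.1 and 111 CPM in neonates and 189.7, 395 and 249 CPM in juveniles (log2 fold change -1.93, standard error 0.38, edgeR adjusted p = 0.00375). Of 24 genes of fatty acid oxidation and ketone synthesis 9 were called lower, 4 without juvenile replicate B, and 0 higher, with PPARGC1A, a coactivator of mitochondrial genes, at 32.7, 40.2 and 38.6 CPM against 90.2, 114 and 104 CPM (log2 fold change -1.44, standard error 0.21, edgeR adjusted p = 0.000744). Of 22 genes of cholesterol synthesis 3 were called lower, 6 without neonatal replicate D, and 1 higher.

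Of 38 tested genes of drug and xenobiotic metabolism 20 were called lower and 1 higher (median -1.11). GSTA2, a glutathione transferase, was at 1.54, 1.72 and 0.9601 CPM in neonates and 19.5, 31.7 and 25.2 CPM in juveniles (log2 fold change -4.29, standard error 0.36, edgeR adjusted p = 4.4e-05). AHRR, the repressor that the aryl hydrocarbon receptor induces, was at 0.963, 1.72 and 0.886 CPM and 20.5, 6.28 and 18.3 CPM (log2 fold change -3.81, standard error 0.54, edgeR adjusted p = 0.000739). Juvenile replicate B was the lowest juvenile library for AHRR, as it was for CYP24A1. In the handling of vitamins A and D, 6 of 23 genes were called lower (3 without neonatal replicate A) and 4 higher. ALDH1A2, which makes retinoic acid, was at 31.4, 64.3 and 59.01 CPM in neonates and 8.59, 4.48 and 10.9 CPM in juveniles (log2 fold change 2.73, standard error 0.38, edgeR adjusted p = 0.000631), while LRAT, which esterifies retinol for storage, was lower in neonates with a log2 fold change of -1.65. STRA6, the receptor for retinol-binding protein, held at most 1 count in a juvenile library and was at least 3.36-fold higher in neonates. The vitamin D receptor VDR had a log2 fold change of -1.26, with the call lost without juvenile replicate B or neonatal replicate A (edgeR adjusted p = 0.0508 and 0.0560).

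Enzymes by which enterocytes make citrulline, and ASS1, which uses it, were lower in neonates. CPS1, which makes carbamoyl phosphate, was at 313, 412 and 480.1 CPM in neonates and 918, 1087 and 1074 CPM in juveniles (log2 fold change -1.33, standard error 0.26, edgeR adjusted p = 0.00303). ASS1, which turns citrulline into argininosuccinate, was at 103, 102 and 153 CPM and 516, 259.9 and 568 CPM (log2 fold change -1.88, standard error 0.32, edgeR adjusted p = 0.00179), and NAGS, which makes the activator of CPS1, had a log2 fold change of -1.30. The list had 8 of 19 genes called lower and 3 higher, 1 without juvenile replicate A. Among the 3, SRM, spermidine synthase, had a log2 fold change of 1.11, while the calls of ARG1, an arginase (2.48), and SLC7A1, an arginine transporter (0.86), were each lost in 3 of the 6 fits that left out 1 library, with edgeR adjusted p-values of at most 0.0726 and 0.0774. Juvenile replicate A was among the libraries that decided both.

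The endocytic and lysosomal genes that mark suckling enterocytes did not move as one. Of 33 genes 10 were called higher and 5 lower, and the median was 0.26, or 0.05 without neonatal replicate D. The count higher was 6 without juvenile replicate A and the count lower was 9 without neonatal replicate D and 3 without neonatal replicate A. Beside MELTF, ARSB, a lysosomal sulfatase, was higher at 44.3, 32.2 and 38.1 CPM against 13.3, 8.595 and 9.94 CPM (log2 fold change 1.89, standard error 0.27, edgeR adjusted p = 0.000753). LRP2, the scavenger receptor megalin, had 8.47, 8.04 and 1.55 CPM in neonates and 1.72, 0.822 and 1.92 CPM in juveniles, with overlap, and its call was lost without juvenile replicate A, B or C or neonatal replicate A or C (edgeR adjusted p between 0.0564 and 0.193). FCGRT, the neonatal Fc receptor that carries immunoglobulin G across the epithelium, was lower in neonates, at 45.3, 71.8 and 86.9 CPM against 162, 240.4 and 152 CPM (log2 fold change -1.41, standard error 0.28, edgeR adjusted p = 0.00332). CUBN, cubilin, the partner of megalin, was at -1.55, and its call was lost without juvenile replicate B or neonatal replicate A or C (edgeR adjusted p between 0.0552 and 0.0680). PRDM1, which encodes the repressor of the adult enterocyte program, BLIMP1, was at 139, 156 and 133 CPM in neonates and 87.6, 87.3 and 118 CPM in juveniles, without overlap but just over the threshold (log2 fold change 0.57, standard error 0.21, edgeR adjusted p = 0.0507). The B cell and plasma cell list also holds PRDM1, and which cells carried it was not measured. Of 21 genes of iron and metal handling 6 were called lower and 2 higher. Beside MELTF the gene called higher was SLC40A1, ferroportin, the only known exporter of iron from cells, at 153, 150.5 and 206 CPM in neonates and 26.1, 15.3 and 23.4 CPM in juveniles (log2 fold change 3.01, standard error 0.27, edgeR adjusted p = 7.5e-05). HEPH, the oxidase that works with ferroportin, was lower with a log2 fold change of -1.25.

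Transcription factors of the enterocyte were called lower in 14 of 32 cases and higher in 2. HNF4A, a main regulator of enterocyte genes, was at 108, 120.0 and 132 CPM in neonates and 304, 624 and 407 CPM in juveniles (log2 fold change -1.86, standard error 0.28, edgeR adjusted p = 0.000909). KLF4, a factor of differentiated epithelium, had a log2 fold change of -1.88. BCL6 was the larger of the 2 differences in the other direction, at 510.3, 336 and 315 CPM against 79.02, 86.1 and 114 CPM (log2 fold change 2.08, standard error 0.27, edgeR adjusted p = 0.000432), and this repressor is also a main factor of germinal center B cells. ID3, an inhibitor of helix-loop-helix factors, was at 1.15 and lost its call without juvenile replicate A or B or neonatal replicate A (edgeR adjusted p between 0.0512 and 0.0573).

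Junction and adhesion genes of the epithelium were lower, with 24 of 36 called lower and 2 higher and a median of -1.13. Without juvenile replicate B 15 were called lower. CLDN3, a sealing claudin, was at 10.2, 20.7 and 32.9 CPM in neonates and 84.04, 149 and 85.7 CPM in juveniles (log2 fold change -2.25, standard error 0.40, edgeR adjusted p = 0.00249). MYO1A, the myosin of the brush border, was at 103, 156 and 226 CPM and 554, 1094 and 690.4 CPM (log2 fold change -2.23, standard error 0.35, edgeR adjusted p = 0.00109), and JUP, plakoglobin of desmosomes and adherens junctions, had a log2 fold change of -1.71. Other epithelial markers gave log2 fold changes of -2.44 for the keratin KRT20, -1.70 for villin (VIL1) and -1.41 for the adhesion protein EPCAM. The 2 genes called higher, EZR (ezrin) and CGNL1 (paracingulin), were at 0.79 and 1.01 and lost their calls in 5 and 4 of the 6 fits that left out 1 library, respectively, with edgeR adjusted p-values of at most 0.164 and 0.103.

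Goblet cell and mucus genes were lower in 12 of 19 cases and higher in 2, with a median of -1.25, and without juvenile replicate B 6 were called lower. MUC2, the main gel-forming mucin, was at 149.6, 209 and 218 CPM in neonates and 251, 729 and 459.6 CPM in juveniles (log2 fold change -1.29, standard error 0.34, edgeR adjusted p = 0.0139), and the call was lost without juvenile replicate B or neonatal replicate A (edgeR adjusted p = 0.0558 and 0.0569). ST6GALNAC1, which adds sialic acid to mucins, was at 6.55, 9.19 and 7.39 CPM and 34.4, 35.9 and 22.6 CPM (log2 fold change -2.01, standard error 0.28, edgeR adjusted p = 0.000667). MUC4, a membrane mucin, held at most 3 counts in a neonatal library and 5.58, 10.5 and 5.61 CPM in juveniles, so that it was lower in neonates at least 4.19-fold, and at least 12.5-fold leaving aside the shallow neonatal replicate C. Among genes of epithelial defense 9 of 24 were called lower (4 without juvenile replicate A) and 4 higher (7 without neonatal replicate A). PIGR, the receptor that carries immunoglobulin A into the lumen, was at 42.6, 85.6 and 72.7 CPM in neonates and 569, 845 and 697 CPM in juveniles (log2 fold change -3.38, standard error 0.31, edgeR adjusted p = 7.5e-05). TLR5, the flagellin sensor, was lower with -2.77, whereas TLR9, a sensor of bacterial DNA, was higher with 1.63. SLPI, a secreted protease inhibitor, was at 22.9, 17.8 and 20.6 CPM in neonates and 1.72, 4.19 and 2.08 CPM in juveniles (log2 fold change 2.92, standard error 0.36, edgeR adjusted p = 0.000347). LYZ, lysozyme, split the juvenile libraries, with 999, 95.3 and 747 CPM in replicates A, B and C against 31.2, 69.5 and 90.8 CPM in neonates, and lost its call without juvenile replicate A or C or neonatal replicate A or C (edgeR adjusted p between 0.0734 and 0.107).

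Of 26 enteroendocrine genes 3 were called higher and 2 lower, with a median of -0.65. CHGA, chromogranin A, was at 62.01, 120.0 and 119 CPM in neonates and 45.2, 64.8 and 43.4 CPM in juveniles, with overlap, and lost its call without juvenile replicate A or C or neonatal replicate C or D (edgeR adjusted p between 0.0549 and 0.0726). Of 17 tuft cell genes 5 were called higher and 1 lower, and the median was -0.34, or -0.09 without juvenile replicate A and -0.52 without juvenile replicate C. PLCG2, a phospholipase shared by tuft cells and B cells, was at 898, 760.3 and 992 CPM in neonates and 308, 359 and 425 CPM in juveniles (log2 fold change 1.31, standard error 0.25, edgeR adjusted p = 0.00292), and GFI1B, a transcription factor, had a log2 fold change of 1.65. TRPM5, the cation channel of tuft cell taste signaling, was at 0.385, 0 and 0.443 CPM against 1.72, 2.84 and 1.76 CPM and lost its call without juvenile replicate B (edgeR adjusted p = 0.0559).

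Cell cycle genes were higher in neonates. Of 42 tested, 39 were called higher and 0 lower, with a median of 1.35, and with 1 library left out between 37 and 40 were called. MKI67, the proliferation marker Ki-67, was at 3777, 2340.1 and 1841 CPM in neonatal replicates A, C and D and 346, 610.0 and 613 CPM in juvenile replicates A, B and C (log2 fold change 2.37, standard error 0.36, edgeR adjusted p = 0.000939). HMGB2, a chromatin protein of dividing cells, was at 2756, 1507 and 707 CPM and 245, 285 and 315 CPM (log2 fold change 2.57, standard error 0.42, edgeR adjusted p = 0.00146), and STMN1, stathmin, at 472, 221 and 169 CPM and 50.4, 47.4 and 73.6 CPM (log2 fold change 2.36, standard error 0.37, edgeR adjusted p = 0.00135). For all 3 genes neonatal replicate A was the highest library and replicate D the lowest of the neonatal ones, and every neonatal library exceeded every juvenile one. Genes of crypt stem and progenitor cells went the other way, with 13 of 25 called lower and 1 higher and a median of -1.30. Without juvenile replicate A 8 of them were called lower. SMOC2, a matrix protein of crypt base cells, was at 12.9, 29.3 and 8.57 CPM in neonates and 82.7, 78.8 and 90.7 CPM in juveniles (log2 fold change -2.43, standard error 0.36, edgeR adjusted p = 0.000920), and DLL1, the Notch ligand of secretory progenitors, was at 6.16, 9.76 and 8.64 CPM and 36.2, 24.5 and 34.1 CPM (log2 fold change -1.94, standard error 0.29, edgeR adjusted p = 0.000852). LGR5, the defining marker of crypt stem cells, was at 7.32, 8.61 and 3.32 CPM in neonates and 14.03, 6.95 and 13.5 CPM in juveniles, with overlap and no call (log2 fold change -0.92, standard error 0.41, edgeR adjusted p = 0.108). CDCA7, the 1 crypt gene called higher, is also a cell cycle gene (log2 fold change 1.20, standard error 0.27, edgeR adjusted p = 0.00623). Germinal center B cells divide as well, and which cells carried the cell cycle genes was not measured in these scrapings.

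Promoters of cell cycle genes commonly hold CCAAT boxes and a cell cycle homology region (CHR). In the 250 bases before the annotated start of each gene in RefSeq (Sscrofa11.1), the CHR letters TTTGAA or their reverse complement TTCAAA were found for 12 of the 39 called cell cycle genes (30.8%), against 10.7% of 12769 tested genes with such a window. The letters CCAAT or ATTGG were found for 24 of the 39 (61.5%), against 32.3%. A match of letters is a description and does not show that a factor binds there. The windows of HMGB2 and MKI67, the 2 genes with a CHR match and the largest differences, are shown 5′ to 3′ on the strand of the gene, with CHR and CCAAT letters in capitals. HMGB2 lies at chr14:16709716-16709965, plus strand and MKI67 at chr14:137296313-137296562, minus strand of Sscrofa11.1.
HMGB2: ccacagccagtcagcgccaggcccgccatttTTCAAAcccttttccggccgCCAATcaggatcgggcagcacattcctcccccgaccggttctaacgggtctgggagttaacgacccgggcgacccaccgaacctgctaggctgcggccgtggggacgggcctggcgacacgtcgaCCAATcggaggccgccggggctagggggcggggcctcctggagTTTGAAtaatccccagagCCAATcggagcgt
MKI67: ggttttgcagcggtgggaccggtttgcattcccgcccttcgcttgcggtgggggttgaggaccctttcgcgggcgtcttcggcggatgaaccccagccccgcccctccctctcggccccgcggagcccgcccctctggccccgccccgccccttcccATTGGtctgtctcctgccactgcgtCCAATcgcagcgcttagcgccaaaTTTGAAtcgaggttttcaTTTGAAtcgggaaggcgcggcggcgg

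Of 29 B cell genes tested, 22 were called higher in neonates and 2 lower, and the median was 1.80. Outside the interferon list 21 of 28 were called higher. PAX5, which fixes B cell identity, was at 1568, 1097 and 1494 CPM in neonates and 182, 201 and 395 CPM in juveniles (log2 fold change 2.44, standard error 0.35, edgeR adjusted p = 0.000723). MS4A1, the surface protein CD20, was at 399.6, 457 and 611 CPM and 136, 69.2 and 163 CPM (log2 fold change 2.02, standard error 0.33, edgeR adjusted p = 0.00138), and CXCR5, the receptor that leads B cells into follicles, at 40.8, 55.1 and 47.8 CPM and 9.59, 4.78 and 9.94 CPM (log2 fold change 2.60, standard error 0.32, edgeR adjusted p = 0.000347). In each of the 3 genes the lowest neonatal library was above the highest juvenile one by more than 2 times. BLK, a kinase of the B cell receptor, and IRF4, a factor of activated B and plasma cells that the interferon list also holds, further had log2 fold changes of 2.61 and 2.47. MZB1 and DERL3, which antibody-secreting cells express and which were named after their values were seen, were called higher at 1.80 and 1.65. JCHAIN, the joining chain of secreted IgA and IgM, was at 98.98, 241 and 168 CPM and 96.6, 85.7 and 71.8 CPM, and lost its call without juvenile replicate B or C or neonatal replicate C (edgeR adjusted p between 0.0635 and 0.0776). SDC1, syndecan-1 of plasma cells and epithelium, was lower in neonates at -1.67, or -1.11 without juvenile replicate B. TNFSF13B, the survival factor BAFF, was the other gene called lower, at -1.18, and lost its call without juvenile replicate A or C or neonatal replicate A (edgeR adjusted p between 0.0665 and 0.0743).

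LTB, lymphotoxin beta, a cytokine of follicle formation, was at 136, 113 and 52.2 CPM in neonates and 11.3, 8.297 and 11.9 CPM in juveniles (log2 fold change 3.27, standard error 0.35, edgeR adjusted p = 0.000179). CXCL13, the chemokine that CXCR5 binds, was at 96.5, 131 and 176 CPM and 46.5, 5.31 and 24.04 CPM, with the 3 juvenile libraries far apart from each other, and lost its call without juvenile replicate C or neonatal replicate A, C or D (edgeR adjusted p between 0.0514 and 0.131). The octamer, a motif of immunoglobulin and other B cell promoters, was searched as ATGCAAAT and its reverse complement ATTTGCAT in the same windows. It occurred in 1 of 21 B cell genes called higher that had a window (4.76%), and in 1.05% of the 12769 windows. That gene was CD79B, a signaling chain of the B cell receptor, with a log2 fold change of 2.35, and its window is shown 5′ to 3′ on the strand of the gene with the octamer in capitals (chr12:15052716-15052965, plus strand, Sscrofa11.1).
CD79B: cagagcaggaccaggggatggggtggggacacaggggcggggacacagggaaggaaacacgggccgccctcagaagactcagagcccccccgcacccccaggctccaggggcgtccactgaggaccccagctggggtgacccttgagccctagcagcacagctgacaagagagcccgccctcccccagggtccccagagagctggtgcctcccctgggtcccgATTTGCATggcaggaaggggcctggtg

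Of 46 T cell genes tested, 28 were called lower in neonates and 2 higher, and the median was -1.95. CD8A, one chain of the CD8 coreceptor, was at 1.73, 2.297 and 2.07 CPM in neonates and 32.9, 29.4 and 33.3 CPM in juveniles (log2 fold change -3.95, standard error 0.29, edgeR adjusted p = 2.4e-05), and CD96, an adhesion receptor of T and natural killer cells, was at 1.16, 4.02 and 1.99 CPM and 27.9, 23.9 and 32.4 CPM (log2 fold change -3.74, standard error 0.37, edgeR adjusted p = 0.000141). CD8B, the second chain, was at 0, 0.574 and 0.295 CPM in neonates and 13.6, 6.88 and 9.13 CPM in juveniles, with a log2 fold change of -5.22 that is imprecise at 0, 1 and 4 neonatal counts. CD3E, a chain of the T cell receptor complex, was at 15.02, 76.95 and 42.98 CPM and 140.4, 164 and 154 CPM, a difference of -1.80 on the log2 scale in which neonatal replicate C was the highest neonatal library, and the call was lost without juvenile replicate B (edgeR adjusted p = 0.0519). The 2 T cell genes called higher were CD247, another chain of that complex, at 117, 95.3 and 104 CPM against 51.5, 48.4 and 56.7 CPM (log2 fold change 1.04, standard error 0.20, edgeR adjusted p = 0.00301), and SLAMF1, a receptor that B cells also carry, at 0.83, whose call was lost in 5 of the 6 fits that left out 1 library (edgeR adjusted p between 0.0713 and 0.127). The cytotoxic list had 17 of 25 genes called lower and 1 higher, with a median of -2.09. Outside the interferon list it held 23 tested genes, of which 15 were called lower. The gene called higher, the natural killer receptor NCR3, was at 1.61 and lost its call without juvenile replicate A or B or neonatal replicate A or D (edgeR adjusted p between 0.0514 and 0.273).

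Macrophage and dendritic cell genes were divided, with 11 of 35 called lower and 7 higher. MSR1, a scavenger receptor of macrophages, was at 0.578, 2.87 and 1.62 CPM in neonates and 27.3, 13.3 and 20.5 CPM in juveniles (log2 fold change -3.74, standard error 0.47, edgeR adjusted p = 0.000393), and XCR1, the chemokine receptor of cross-presenting dendritic cells, at 2.503, 1.72 and 5.32 CPM and 24.1, 26.8 and 25.96 CPM (log2 fold change -2.75, standard error 0.36, edgeR adjusted p = 0.000455). LAMP3, a lysosomal protein of mature dendritic cells, was higher at 124, 157 and 98.2 CPM against 15.3, 20.1 and 18.3 CPM (log2 fold change 2.83, standard error 0.24, edgeR adjusted p = 4.3e-05), as were F13A1, the coagulation factor subunit found in tissue macrophages (2.59 on the log2 scale), and CD83, a maturation marker of dendritic and B cells (1.54). KIT, the receptor of mast cells and pacemaker cells, was lower at 12.3, 32.7 and 11.3 CPM against 74.01, 48.1 and 59.8 CPM (log2 fold change -1.79, standard error 0.37, edgeR adjusted p = 0.00434), in a list of mast cells and granulocytes with 3 of 12 genes called lower and 1 higher.

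**Figure D3:**
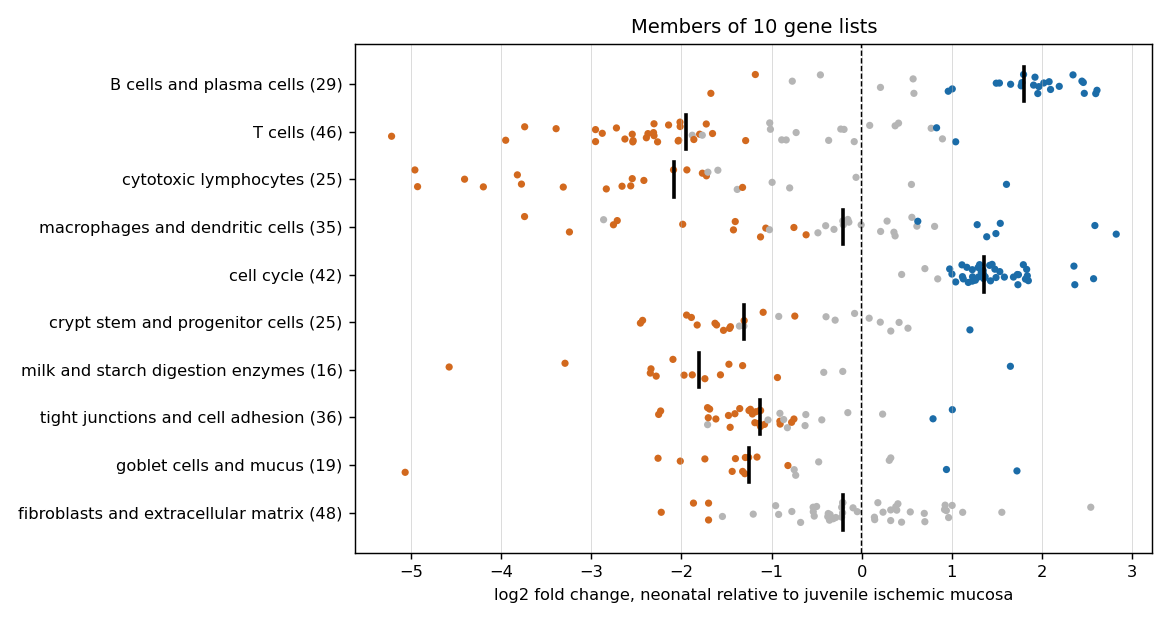
Log2 fold change, neonatal relative to juvenile ischemic mucosa, of each tested member of 10 gene lists (number of members in parentheses), with members called higher in blue, called lower in orange and not called in gray. Vertical bars mark list medians, from -2.09 for cytotoxic lymphocytes to 1.80 for B cells, and the dashed line marks the median of all genes tested.

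Stromal genes depended on which neonatal library was kept. Of 48 fibroblast and matrix genes 4 were called lower and 0 higher, but without neonatal replicate C 18 were called lower. The summed level of this list was 3084, 8939.6 and 2764 CPM in neonatal replicates A, C and D and 6097, 4422 and 6012 CPM in juveniles, with replicate C above all juvenile libraries and A and D below them. In control mucosa the same list summed to 5594, 12871 and 5094 CPM in neonates and 1996, 3482 and 2698 CPM in juveniles, without overlap. F3, tissue factor, was at 9.05, 9.76 and 13.4 CPM in neonates and 47.7, 59.6 and 50.8 CPM in juveniles (log2 fold change -2.22, standard error 0.26, edgeR adjusted p = 0.000297), and BMP5, a bone morphogenetic protein of villus fibroblasts, was at 10.4, 24.7 and 14.9 CPM and 74.01, 37.9 and 64.9 CPM (log2 fold change -1.87, standard error 0.34, edgeR adjusted p = 0.00243). Of 26 smooth muscle genes 8 were called lower and 0 higher, with 3 lower without neonatal replicate D and 15 without neonatal replicate C. Among vessel genes 12 of 33 were called lower and 0 higher, with 16 lower without neonatal replicate C and 6 without juvenile replicate C. FLT4, the receptor VEGFR3 of lymphatic endothelium, was at 3.66, 9.19 and 3.47 CPM in neonates and 15.3, 13.8 and 20.4 CPM in juveniles (log2 fold change -1.77, standard error 0.38, edgeR adjusted p = 0.00506), and RELN, the extracellular protein reelin, which lymphatic endothelium also makes, was at 10.6, 16.1 and 20.01 CPM and 45.4, 43.9 and 55.8 CPM (log2 fold change -1.59, standard error 0.28, edgeR adjusted p = 0.00195).

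GFAP, the filament protein of glia, was at 0.193, 0 and 0.222 CPM in neonates and 1.57, 0.523 and 0.962 CPM in juveniles, without overlap. It held at most 3 counts in a neonatal library and was not called (log2 fold change -2.24, standard error 0.86, edgeR adjusted p = 0.0649). S100B had 0 counts in all 6 libraries, and SOX10, the transcription factor of glia, was at 0.193, 1.72 and 0.222 CPM and 0.286, 0.149 and 0 CPM, with overlap and no call (log2 fold change 1.39, standard error 1.20, edgeR adjusted p = 0.395). Of 18 glial genes tested 3 were called higher and 2 lower, and the most abundant of them, ERBB3, is also an epithelial gene. The calls of NGFR, SFRP5 and GAP43, which were higher, and of ERBB3 and ABCA8, which were lower, were each lost in at least 2 of the 6 fits that left out 1 library, with edgeR adjusted p-values of at most 0.292. Of 22 neuronal genes 4 were called higher (1 without juvenile replicate C) and 0 lower. UCHL1, the ubiquitin hydrolase PGP9.5 of neurons, held at most 3 counts in a juvenile library and was at least 5.52-fold higher in neonates.

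Genes that respond to ischemia and repair were compared next, since both groups had been ischemic for 30 min. Of 44 immediate early and stress genes 9 were called lower and 5 higher, shares of 20.5% and 11.4% against the background of 16.6% in each direction. The count higher was 2 without juvenile replicate A and 8 without neonatal replicate D. FOS, the immediate early factor of AP-1, was at 52.2, 31.6 and 19.6 CPM in neonates and 143, 198 and 136 CPM in juveniles (log2 fold change -2.18, standard error 0.33, edgeR adjusted p = 0.000909), and DUSP5, a phosphatase that limits ERK, was at 11.9, 16.1 and 14.2 CPM and 36.8, 62.1 and 44.4 CPM (log2 fold change -1.75, standard error 0.27, edgeR adjusted p = 0.000955). EGR3 was higher at 8.47, 11.5 and 6.13 CPM against 1.57, 1.49 and 2.404 CPM (log2 fold change 2.23, standard error 0.39, edgeR adjusted p = 0.00190), and this factor is also induced by antigen receptors of lymphocytes. The chaperone gene HSPH1 was higher with a log2 fold change of 1.36. Of 45 hypoxia genes 8 were called lower and 5 higher, shares near the background, with 2 higher without juvenile replicate B and 4 lower without neonatal replicate A. HIF1A, the oxygen-regulated factor, was at 289, 309.5 and 274 CPM and 199.7, 148 and 237 CPM, without overlap and without a call (log2 fold change 0.60, standard error 0.23, edgeR adjusted p = 0.0674), and the growth factor VEGFA was at 75.5, 52.8 and 29.5 CPM and 67.3, 67.3 and 58.8 CPM, with overlap (log2 fold change -0.28, standard error 0.30, edgeR adjusted p = 0.489). PFKFB3, an activator of glycolysis, was higher at 86.7, 76.95 and 100.7 CPM against 44.4, 37.1 and 53.5 CPM, and EGLN3, an oxygen-sensing hydroxylase, was lower with -1.29. In control mucosa 8 immediate early and stress genes were called lower and 2 higher, with a median of -0.30 against -0.16 in ischemic mucosa. Of the hypoxia genes 10 were called lower and 2 higher in control mucosa, with a median of -0.27 against -0.13 in ischemic mucosa. Over all genes tested, 12.5% were called lower and 7.03% higher in control mucosa. The values above are age differences after ischemia, and responses to ischemia were not tested for these lists.

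Of 64 cytokines, growth factors and receptors of repair 23 were called lower and 9 higher. Outside the interferon list 61 were tested, of which 21 were called lower and 9 higher. The count lower was 15 without juvenile replicate A and the count higher 5 without juvenile replicate C. AREG, the epidermal growth factor receptor ligand amphiregulin, was at 3.08, 1.72 and 1.55 CPM in neonates and 21.5, 12.7 and 15.2 CPM in juveniles (log2 fold change -2.93, standard error 0.39, edgeR adjusted p = 0.000468). HGF, hepatocyte growth factor, was at 2.696, 4.02 and 1.403 CPM and 18.6, 11.96 and 11.7 CPM (log2 fold change -2.58, standard error 0.41, edgeR adjusted p = 0.00122). CCL28, a chemokine that attracts IgA-producing cells, was at 0.385, 1.15 and 2.66 CPM and 9.31, 11.4 and 9.13 CPM, with a log2 fold change of -2.53 that moved to -4.02 without neonatal replicate D. The remaining neonatal libraries held 2 counts each, so that fitted value is imprecise. Beside LTB and TNFSF11, IL22, a cytokine that acts on the epithelium, was called higher at 2.52 with 0.385, 1.15 and 2.36 CPM in neonates and 0.286, 0.374 and 0 CPM in juveniles, and its call was lost in 5 of the 6 fits that left out 1 library (edgeR adjusted p between 0.0582 and 0.462).

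Of 28 genes of fetal growth tested, 9 were called higher and 3 lower, or 6 higher without juvenile replicate B. IGF2BP1 and LIN28B, RNA-binding proteins of fetal tissue, had 0 counts in all 3 juvenile libraries. In neonates IGF2BP1 was at 1.93, 1.15 and 1.26 CPM and LIN28B at 1.16, 0 and 1.18 CPM, at least 3.002-fold and 1.62-fold higher. IGF2, a fetal growth factor, was in contrast lower in neonates, at 7.51, 20.1 and 3.397 CPM against 28.5, 34.2 and 38.1 CPM, with its call lost without juvenile replicate B or neonatal replicate A (edgeR adjusted p = 0.0502 and 0.0626). Of 24 circadian clock genes 10 were called lower and 2 higher. NPAS2, a partner of the clock factor ARNTL, was at 2.89, 6.32 and 4.65 CPM in neonates and 24.9, 55.4 and 33.01 CPM in juveniles (log2 fold change -3.07, standard error 0.38, edgeR adjusted p = 0.000347), and BHLHE41, a repressor of the clock, at 53.7, 63.2 and 40.7 CPM and 12.03, 8.89 and 16.5 CPM (log2 fold change 2.09, standard error 0.29, edgeR adjusted p = 0.000631). The hour of sampling is not given, and age and hour cannot be told apart for these genes.

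The most abundant transcripts by CPM, which is not corrected for length, differed in part between the ages. SPAI-2, a sodium-potassium pump inhibitor peptide gene of the pig, was among the 10 most abundant in juveniles, at 4906, 4322 and 6243 CPM against 625, 1672 and 1819 CPM in neonates (log2 fold change -1.89, standard error 0.41, edgeR adjusted p = 0.00509). HMGB1, a chromatin protein, was among the 10 most abundant in neonates, at 4548, 2810.4 and 1460.5 CPM against 823, 849 and 999 CPM in juveniles (log2 fold change 1.74, standard error 0.38, edgeR adjusted p = 0.00554). PTMA, prothymosin alpha, was another, at 4715, 4019.8 and 3028 CPM against 1446, 1595 and 1648 CPM (log2 fold change 1.35, standard error 0.29, edgeR adjusted p = 0.00502). Neither gene showed overlap between the ages. The mitochondrial gene COX1 was lower in neonates, at -1.09, as was the identifier ENSSSCG00000018063. Without juvenile replicate A, the library that stood apart for both, the log2 fold changes were -0.61 and -0.90 and neither was called (edgeR adjusted p = 0.221 and 0.208). Leaving out neonatal replicate A or C also ended both calls, as did juvenile replicate B or C for COX1 (edgeR adjusted p between 0.0555 and 0.221 for COX1 and between 0.130 and 0.208 for the other).

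The same comparison in control mucosa showed how far these differences were present without ischemia. In control mucosa 2774 genes were called, 19.5% of those tested, with 998 higher in neonates (7.03%) and 1776 lower (12.5%). Of the 4718 genes called in ischemic mucosa 1923 were also called in control mucosa, which is 40.8% of the ischemic and 69.3% of the control calls, and 1918 of these had the same direction in both. Control libraries varied more, with a biological coefficient of variation of 35.6% against 26.6%, and in 2 of them, juvenile replicate C and neonatal replicate D, reads with several alignments made up 46.4% and 39.8% of all, where the ischemic libraries had 8.89% to 14.9%. Without these 2 control libraries 1579 genes were called in control mucosa, and leaving out juvenile control replicate A, juvenile control replicate B or neonatal control replicate C gave 1232, 1818 and 1733. The count higher in neonates was 365 without juvenile control replicate C and neonatal control replicate D together. It was 261 without juvenile control replicate A, 576 without neonatal control replicate A and 571 without neonatal control replicate C. Scaling by library totals alone turned the split in control mucosa to 1906 higher and 977 lower. A test of whether the age difference itself differed between ischemic and control mucosa, in one edgeR fit of all 12 samples, called 0 genes (0.00%), while the unadjusted p was under 0.05 for 1443 genes (10.2%) and the smallest adjusted p was 0.270. DESeq2 called 92 genes in the same test, and edgeR called 4 without juvenile control replicate B and 1 without juvenile ischemic replicate B. By edgeR, genes called in 1 of the 2 comparisons alone were therefore not shown to differ between them.

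Control values beside the ischemic ones are given for a few of the genes named above. SLC10A2 had log2 fold changes of -4.40 in ischemic and -5.12 in control mucosa, MGAM -4.58 and -6.02, GZMA -4.96 and -5.70, and PAX5 2.44 and 2.47. Of the 33 vessel genes 12 were called lower and 0 higher in ischemic mucosa, with a median of -0.75, and 1 lower and 6 higher in control mucosa, with a median of 0.72. The smooth muscle list, with 8 lower and 0 higher in ischemic and 0 lower and 2 higher in control mucosa, had medians of -0.72 and 0.94. In ischemic mucosa the median was -0.35 for vessels and -0.31 for smooth muscle without neonatal replicate D, and -1.22 and -1.13 without neonatal replicate C. In control mucosa leaving out neonatal control replicate C gave 0.43 and 0.41, and without juvenile control replicate A 1 vessel gene and 0 smooth muscle genes were called higher. Fibroblast and matrix genes, with 1 called lower and 22 higher in control mucosa (5 higher without juvenile control replicate A), had a median of 1.66 there, or 1.06 without neonatal control replicate C. In ischemic mucosa their median of -0.21 changed sign with the libraries kept, from -0.74 without neonatal replicate C to 0.13 without neonatal replicate D. Medians of opposite sign were not confined to stromal lists. In ischemic and control mucosa they were -0.72 and 0.40 for cytokines, growth factors and receptors of repair and -0.86 and 1.22 for mast cells and granulocytes. They were -0.34 and 0.83 for tuft cells and -0.20 and 0.50 for macrophages and dendritic cells. Epithelial defense (-0.23 and 0.13) and the handling of vitamins A and D (-0.17 and 0.05) had smaller ones. The differences between ischemic and control mucosa were not tested for these lists. MELTF was higher in every neonatal library, control ones included, at 246, 153 and 229 CPM in neonatal control replicates A, C and D and at most 2 counts in a juvenile control library. The 5 genes with the smallest p for the difference between ischemic and control mucosa were DLL1, RELN, ANGPTL4, CPAMD8 and ARHGAP20. DLL1 was at -1.94 in ischemic and 0.48 in control mucosa (standard error 0.34, not called), and RELN at -1.59 and 0.72 (standard error 0.32, not called). CPAMD8, a protein of the complement C3 and macroglobulin family, was at 0.578, 0.574 and 0.739 CPM in ischemic neonates and 10.02, 4.78 and 8.49 CPM in ischemic juveniles, and its log2 fold change was -3.46 in ischemic and 0.06 in control mucosa. The ischemic value is imprecise, since neonatal replicates A and C held 3 and 1 counts. ANGPTL4, an inhibitor of lipoprotein lipase that fasting and hypoxia induce, was the reverse case, at 0.35 without a call in ischemic mucosa and -1.79 with a call in control mucosa (edgeR adjusted p = 0.00250). None of the 5 passed the adjusted test of the difference with edgeR (each adjusted p = 0.270).

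**Figure D4:**
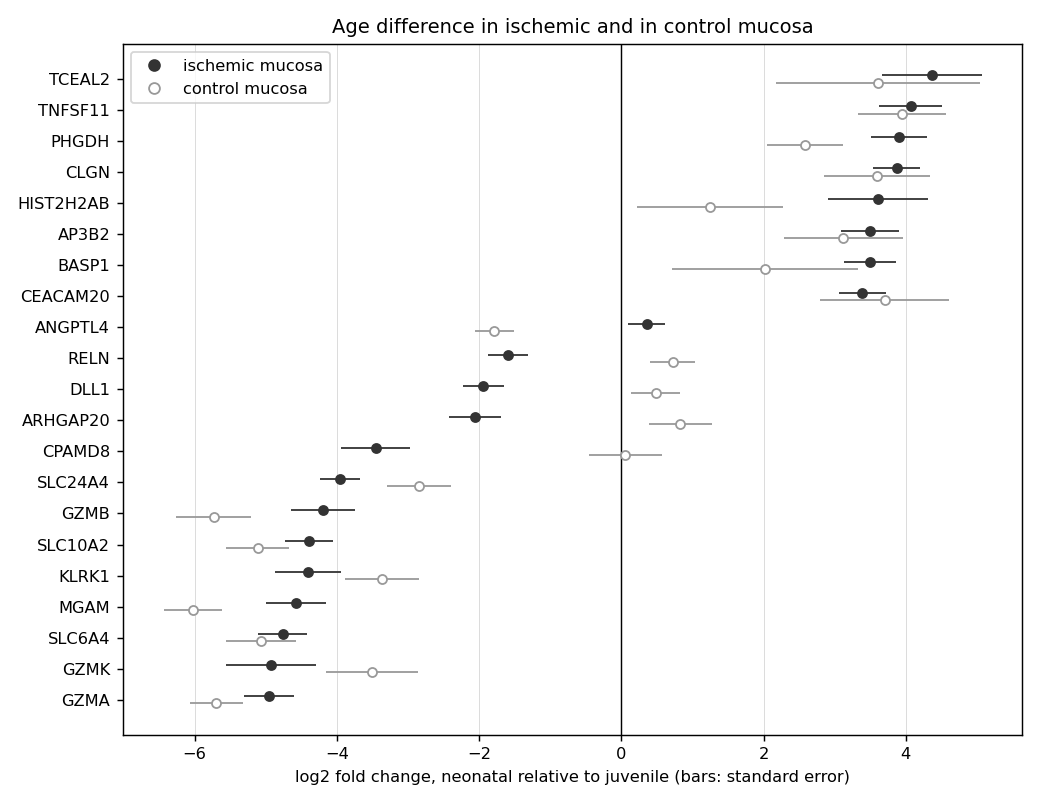
Log2 fold change, neonatal relative to juvenile, in ischemic mucosa (filled) and control mucosa (open) for 21 genes, with standard errors as bars: the genes with the largest age differences that were above the floor of 3 counts in both ages, and the 5 genes with the smallest p for the difference between the 2 comparisons. CPAMD8, ARHGAP20, DLL1 and RELN lie below 0 in ischemic mucosa and at or above 0 in control mucosa, and ANGPTL4 the other way round.

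Summed levels of whole lists, which the most abundant members dominate, were compared library by library. B cell genes summed to 4091, 3496 and 4527 CPM in ischemic neonatal replicates A, C and D and 1237, 1148 and 1537 CPM in ischemic juvenile replicates A, B and C, with 4086, 2501 and 3729.6 CPM in neonatal and 825, 1702 and 1231 CPM in juvenile control mucosa. T cell genes summed to 470.3, 804 and 558 CPM in ischemic neonates and 1306, 1219 and 1239 CPM in ischemic juveniles. The 2 ages did not overlap for either list in ischemic or control mucosa. Digestive enzymes summed to 2514, 3775 and 6938 CPM in ischemic neonates and 15731, 24216 and 19145 CPM in ischemic juveniles, again without overlap. Smooth muscle genes summed to 2049.8, 3222 and 1108 CPM in ischemic neonates and 2895, 2069 and 2321 CPM in ischemic juveniles, and here the ages overlapped. In control mucosa they summed to 1973, 3962 and 2628 CPM in neonates and 890.2, 1472 and 1938 CPM in juveniles, without overlap.

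**Figure D5:**
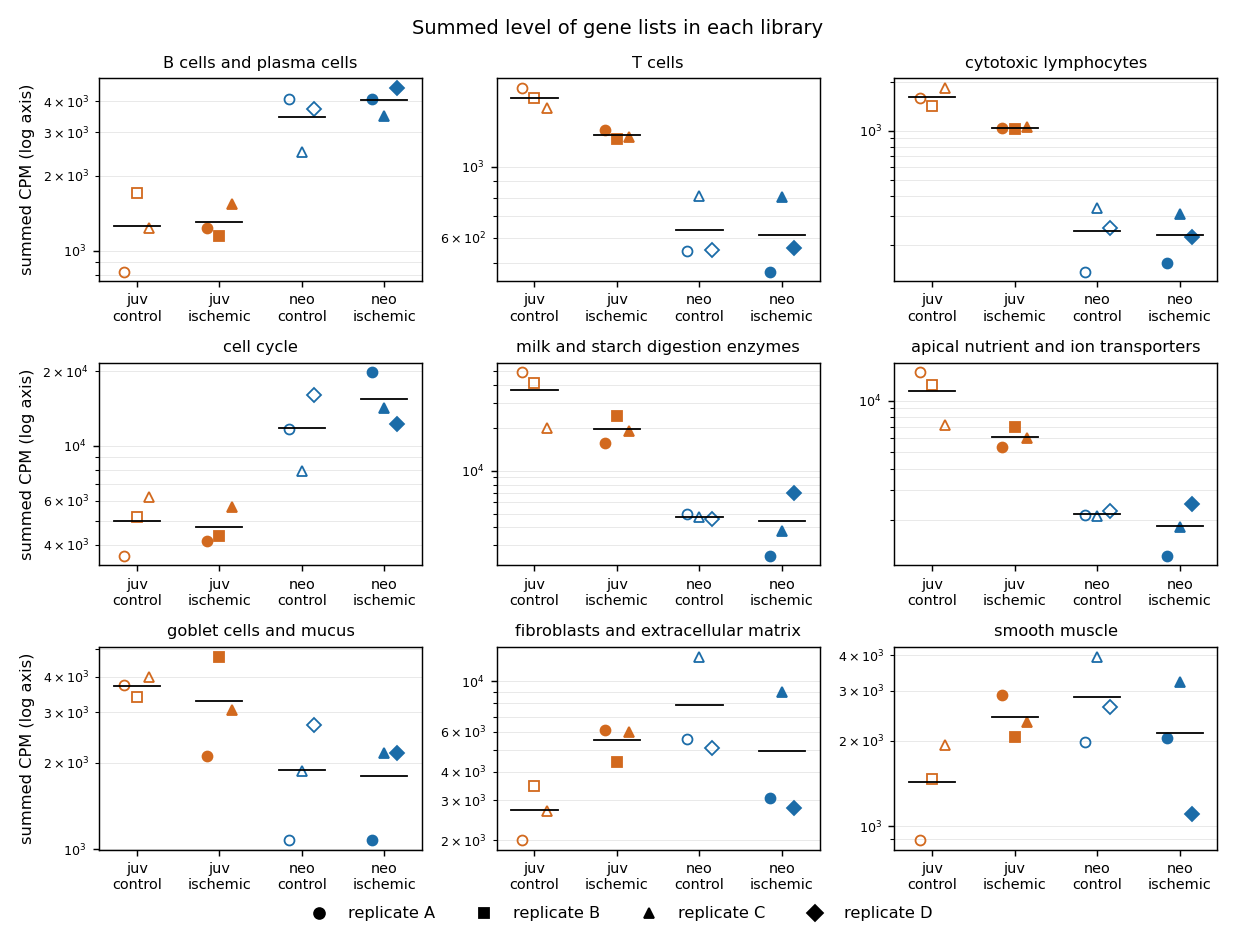
Summed CPM (log axis) of 9 gene lists in each of the 12 libraries, with juvenile libraries in orange, neonatal libraries in blue, control mucosa as open and ischemic mucosa as filled symbols, shape by replicate letter, and bars at group means. B cell and cell cycle sums of ischemic neonates lie above those of ischemic juveniles, and T cell, cytotoxic, digestive and transporter sums lie below. The goblet cell, fibroblast and smooth muscle sums of ischemic mucosa overlap between ages.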

How the data were processed

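Jejunal mucosal scrapings were sequenced by the study as stranded total RNA, single-end, and the authors deposited raw read counts per gene against Sscrofa11.1. The aligner, the counter and its strand setting are not given in the sources used here, so genes that overlap or have antisense partners may share counts. The study's tables of fold changes and p-values were not used. In the ischemic libraries 36.5% to 50.8% of reads lay outside annotated genes and 8.89% to 14.9% aligned at more than 1 place, and neither kind entered library totals or tests.

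Genes were kept where 2 or more of the 12 samples exceeded 1 CPM. The 6 ischemic samples were fitted with age as the only term by the quasi-likelihood test of edgeR 4.0.16 in R 4.3.3, with TMM factors and Benjamini-Hochberg adjustment over all 14191 genes at 0.05. The 6 control samples were fitted the same way, and a joint fit of the 12 samples tested the difference between both contrasts. Alternatives were DESeq2 (1.42.0), which the study's notes also name, RLE factors, library totals alone, no filter, filterByExpr, a joint fit of all samples, a replicate block and the omission of 1 replicate at a time. Leaving out juvenile control C and neonatal control D together, and a replicate block by the letters of the sample titles, were added after seeing the data. In simulated data for the ischemic comparison, with 200 of 14191 genes changed by 2 on the log2 scale, edgeR recovered 82.5% with 8.33% false calls, and DESeq2 recovered 84.0% with 13.8% false calls. With 0 genes changed, edgeR made 1 call and DESeq2 made 12. Far fewer genes were changed there than the 33.2% called in ischemic mucosa, so these rates do not describe the 4718 calls. The ischemic totals of 1652066 to 13679407 counts leave genes near 1 CPM imprecise in the shallowest library, and counts cover counting error only as independent reads without molecular identifiers.

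Gene lists (36, of which 1249 of 1347 genes were in the table and 1123 were tested) were described by members called and by the median. Members and lists were chosen with earlier results of these data known. Named genes were the 10 largest changes in each direction with a symbol, non-overlapping groups, a mean of at least 10 CPM and no place in the interferon list, up to 3 called members of each list in each direction, a fixed set of landmark genes, the 5 smallest p-values of the difference test, the 10 most abundant genes of each age, and tissue, blood and Y-linked markers. Results for a few genes that this rule names are not reported here. CD79B was chosen after its promoter was seen to hold the octamer. Of 4727 Ensembl identifiers in the table, 138 gained a symbol from the RefSeq annotation.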

Additional observations from a re-analysis of the deposited data

Results flagged for a closer look

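ARHGAP20, a GTPase-activating protein, had age differences of opposite direction in ischemic and control mucosa. Its log2 fold change was -2.06 in ischemic mucosa, where each neonatal library lay below each juvenile one (2.12, 4.59 and 2.51 CPM against 14.5, 9.64 and 11.5 CPM). In control mucosa it was 0.83 without a call, with neonatal libraries at 6.26, 8.01 and 4.56 CPM and juvenile libraries at 3.83, 4.54 and 1.57 CPM. The control groups did not overlap, but only by 4.56 against 4.54 CPM. The 1.57 CPM of juvenile control replicate C lay under the floor of 3 counts, which was 2.01 CPM in that library. The edgeR test of the difference itself did not pass (adjusted p = 0.270, unadjusted p = 0.000127), and 83 of the 14191 genes tested had non-overlapping groups in opposite directions.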

How the results depend on the processing

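The count of genes called in ischemic mucosa stayed within 1.5 times of 4718 in every alternative, from 3730 in one fit of all 12 samples to 5046 with a replicate block, and from 3202 to 4949 with 1 replicate left out. The shares higher and lower moved by less than 10 percentage points in each of these. The labels do not say whether libraries of a letter came from 1 pig, and their deviations from group means showed no common pairing. Control and ischemic libraries of a letter and age correlated between -0.13 and 0.02, except 0.48 for neonatal C, and libraries of a letter from both ages by 0.03 for A and 0.02 for C in ischemic and by 0.39 for A and -0.02 for C in control mucosa. The replicate block by the letters of the count columns shared 3982 calls with the fit without it. With the letters of the titles, an alternative added after seeing the data, the replicate block gave 3834 calls, 3434 of them shared, in ischemic and 2388 in control mucosa. In control mucosa the count was 2774, 3936 in the fit of all 12 samples (1627 higher), between 1232 and 2295 with 1 replicate left out, 3915 with the replicate block and 1579 without juvenile control C and neonatal control D together, an alternative chosen after seeing the data, and the causes were not tested. Its split was 35.98% higher, 44.1% with RLE factors, 46.2% with DESeq2 and 66.1% with library totals alone. For the difference between both comparisons edgeR called 0 genes, between 0 and 4 with 1 replicate left out and 0 with the replicate block, and DESeq2 92. Named genes that passed the threshold kept their direction in every alternative. Among named genes without a call, 1 changed sign on the log2 scale. VEGFA was at 0.0057 with the replicate block and between -0.68 and 0.0076 with 1 replicate left out. Of 473 list medians under the alternatives, 47 moved by more than 1 SD of the list's mean level between replicates. Depth limits genes near the floor of 3 counts, which was 1.82 CPM in neonatal ischemic replicate C.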
